A study of Mus musculus with 12 samples.

Results

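The p53 target genes described here are a list of 31 symbols: Trp53, which encodes p53, and 30 genes known as its transcriptional targets or controllers. Members were picked by symbol, from a list drawn up with earlier results of these data known. All 31 were listed among the 26639 features of the white adipose tissue (WAT) table and among the 22851 of the culture table. RNA was sequenced from mice with a mature-adipocyte knockout of Xap5, the nuclear protein encoded by Fam50a, in which deletion was driven from the adiponectin promoter and so was directed to adipocytes, not to other cells of the fat. WAT was taken at postnatal day 42 from wild-type (WT) and conditional knockout (cKO) mice, and WT and knockout (KO) adipocytes were cultured from preadipocytes of newborn subcutaneous fat and taken on day 8 of induction with insulin, dexamethasone and IBMX. Each of the 4 groups held 3 libraries. The labels give neither the sex of the mice, the WAT depot, nor whether WT mice carried floxed alleles or Cre, and they do not say that replicates are separate animals or cultures. The spread behind each p-value is therefore that of these libraries, which may not be the spread between animals or between cultures.

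p53 is a transcription factor held at a low level by the ubiquitin ligase Mdm2 and its partner Mdm4. When DNA is damaged or a cell is otherwise stressed, p53 escapes this control and binds paired copies of a short motif near genes for cell cycle arrest, cell death, DNA repair and metabolic adjustment, Mdm2 among them, which closes a feedback loop. Many of these genes have other activators as well. In fat, p53 is known for roles in adipocyte differentiation, senescence and the inflammation of obese tissue.

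The sequences below show where letters matching the p53 motif lie near the start of some members. In the RefSeq promoter table of GRCm38.p6, which covers 250 bases before and 50 bases from a gene's start, 23 of the 31 members had a window. The 10-base p53 motif, searched by name and identical to its own reverse complement as a pattern, occurred in 10 of these 23 members (43.5%) and in 9.55% of the 27025 genes of the table. A pair of motifs with 0 to 13 bases between them was found in 1 member, Cdkn1a, and in 0.074% of all genes. Cdkn1a also had a window from chr17:29093519, at a start further downstream, which held no p53 motif. Only exact matches were counted. The 250 bases before the upstream start of Cdkn1a begin at chr17:29090729 on the plus strand, and the capitals mark both motifs of the pair, 12 bases apart. The 10 bases straight after the second motif differ from the pattern at their first base only, and so are not marked.
Cdkn1a: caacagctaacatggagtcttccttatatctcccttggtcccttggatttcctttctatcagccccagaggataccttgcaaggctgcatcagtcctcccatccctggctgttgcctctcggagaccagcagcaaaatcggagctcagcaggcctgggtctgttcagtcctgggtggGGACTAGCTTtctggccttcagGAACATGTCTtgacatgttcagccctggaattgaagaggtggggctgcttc
Single motifs, again in capitals, were found before the starts of Mdm2 (chr10:117710925-117710954, minus strand), Trp53 (chr11:69580274-69580303, plus), Sesn1 (chr10:41887256-41887285, plus), Ei24 (chr9:36797325-36797354, minus) and Gadd45a (chr6:67037428-67037457, minus).
Mdm2: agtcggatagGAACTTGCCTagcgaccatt
Trp53: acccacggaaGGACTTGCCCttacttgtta
Sesn1: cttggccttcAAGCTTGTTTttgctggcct
Ei24: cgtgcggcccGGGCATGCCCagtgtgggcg
Gadd45a: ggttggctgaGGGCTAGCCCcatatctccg
The remaining members with a motif were Ccng1, Aen, Polk and Gtse1. No window of Gdf15, Phlda3, Eda2r, Plk2, Psrc1, Apaf1, Btg2, Mdm4, Sesn2, Pidd1, Ercc5, Fas or Plk3 held a p53 motif. Sesn1, Polk and Gtse1 each also had a window, at another start, without a p53 motif. TTTGAA, letters of the element bound by the DREAM complex that represses cell division genes, was read on both strands and occurred in 4 of 23 members (17.4%) and in 20.2% of all genes. CCAAT, also read on both strands, occurred in 13 of 23 (56.5%) and in 41.1%. A match describes letters in this window and not a bound site.

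WAT libraries held 28844370 to 33997204 counts and culture libraries 10863158 to 21773610, with KO replicates 2 and 3 the deepest of the cultures. Levels are given as CPM, counts relative to the library total after TMM scaling, and tissue and culture were scaled separately. Fam50a, the targeted gene, had 35.3, 32.4 and 36.5 CPM in WT WAT and 23.2, 16.7 and 28.9 in cKO WAT, a fall of 0.60 on the log2 scale by the fit below (log2 fold change -0.60, SE 0.20, adjusted p = 0.0395). In culture it had 57.8, 52 and 45.2 CPM in WT and 46.1, 42.8 and 41 in KO, so that the groups overlapped, and the change did not pass the threshold (-0.26, SE 0.12, adjusted p = 0.134). Mature adipocyte markers summed to 75900 to 80100 CPM in WT WAT and to 25400 to 27100 in WT culture, and macrophage markers were present in both, at 693 to 1090 and 4470 to 4880 CPM. In cKO WAT replicate 3, epithelial markers summed to 1030 CPM, against 15.6 and 14.8 in the other cKO libraries and 20.4 to 63.3 in WT.

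In WAT of cKO mice, 20 of the 31 members were higher than in WT and 3 were lower, while 8 did not pass the threshold. Among the largest rises were those of the stress cytokine Gdf15 (50.4-fold), the TNF receptor family member Eda2r (8.50-fold) and the growth arrest gene Gadd45a (6.93-fold). Cdkn1a, the arrest gene most used to read p53, did not pass. Changes were tested with the quasi-likelihood test of edgeR and called at a Benjamini-Hochberg adjusted p under 0.05 over all 16293 genes tested. Of all genes, 28.2% were called higher and 24.2% lower, 52.4% in all. The median log2 fold change was 0.69 over the members and 0.12 over all genes tested. Without cKO replicate 3 it was 0.89, with 18 members higher and 2 lower, beside 23.1% and 21.7% of all genes. With scaling by library size alone 24 members were higher and 1 lower, beside 54.2% and 8.78% of all genes. After correction for a trend with transcript length and GC content 14 were higher and 5 lower, beside 18.3% and 31.9% of all genes with a length and GC value.

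**Figure D1:**
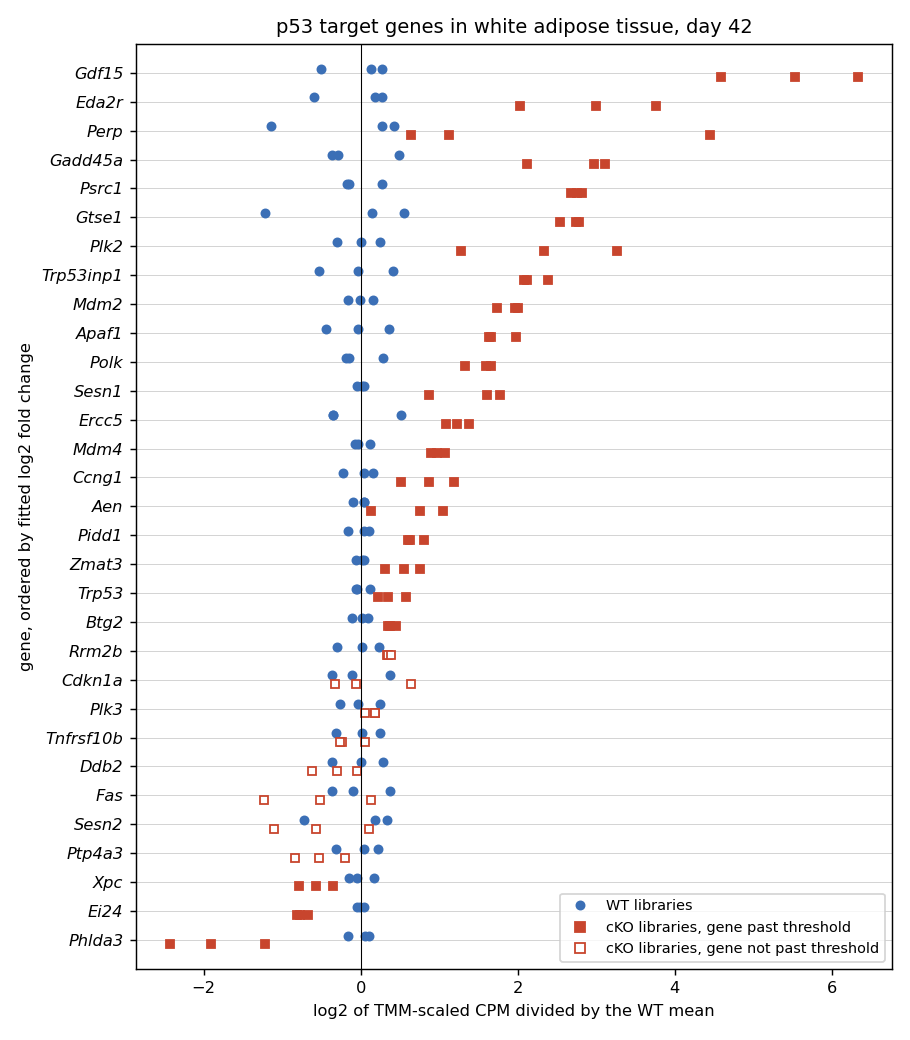
Level of each member in each WAT library, plotted as the log2 of its CPM divided by the WT mean (horizontal axis) for 31 genes ordered by fitted log2 fold change (vertical axis). Circles are WT libraries and squares cKO libraries, filled where the gene passed the threshold. The cKO squares lie above every WT circle for 21 genes, below for 3 and overlap for 7, and Gdf15 at the top shows the largest fitted rise and Phlda3 at the bottom the largest fitted fall.

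Separation between groups followed the same pattern. All 3 cKO libraries lay above all 3 WT libraries for 21 members, against 35.1% of genes tested, and below for 3, against 29.3% (64.4% of genes either way). Relative to the WT mean, the median member lay at -0.02, 0.04 and 0.01 log2 units in the WT libraries and at 0.75, 0.74 and 0.56 in cKO replicates 1, 2 and 3. Of the 20 members called higher, 11 had their highest cKO level in replicate 2, 6 in replicate 3 and 3 in replicate 1. Their lowest cKO level was in replicate 3 for 9, in replicate 2 for 6 and in replicate 1 for 5. These ranks were not counted over all genes. Per kilobase of the longest transcript, WT WAT held most of Phlda3 (871 CPM per kb), then Cdkn1a (95.5) and Ei24 (83.1), and least of Eda2r (0.138) and Perp (0.282).

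p53 and its inhibitors were higher in cKO WAT in 3 of 3 cases, beside 28.2% of all genes tested. Trp53 had 48.4, 54.3 and 48 CPM in WT and 63.9, 58.6 and 74.6 in cKO. Every cKO library was above every WT library, by a log2 fold change of 0.39 (SE 0.13, adjusted p = 0.044). This call was lost without WT replicate 1, 2 or 3 or cKO replicate 1 or 3 (adjusted p from 0.0642 to 0.132), and with RLE size factors (0.074), no count filter (0.0536) or DESeq2 (0.0663). Mdm2, the ligase that degrades p53, had 23.2, 18.6 and 20.7 CPM in WT and 81, 83.3 and 69.6 in cKO, a 3.74-fold rise (log2 1.90, SE 0.14, adjusted p = 0.000434) with tight groups far apart. Mdm4, its relative that blocks p53 activity, had 39, 35.1 and 34.1 CPM in WT and 67.1, 70.5 and 75.6 in cKO (0.98, SE 0.12, adjusted p = 0.000941). The groups of Mdm4 were as cleanly separated, but after length and GC correction its value was 0.09 (adjusted p = 0.568).

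Among the 9 members of the cell cycle group, 6 were higher in cKO WAT and none was lower, beside 28.2% and 24.2% of all genes tested. Cdkn1a, the cyclin-dependent kinase inhibitor p21, had 258, 154 and 184 CPM in WT and 191, 311 and 159 in cKO. The groups were interleaved, with a log2 fold change of 0.15 (SE 0.29, 95% interval -0.54 to 0.84, adjusted p = 0.69). Its value was -0.20 without cKO replicate 2, -0.01 without WT replicate 2, and 0.82 with scaling by library size alone (adjusted p = 0.0386). The WAT table also lists a numbered copy of the symbol with 419, 423 and 523 counts in WT and 1047, 1585 and 487 in cKO, and the sum of both gave 0.17 (adjusted p = 0.649). Gadd45a, a growth arrest and DNA damage protein, had 4.27, 7.67 and 4.5 CPM in WT and 43.1, 47.3 and 23.7 in cKO. All cKO libraries of Gadd45a lay well above WT (log2 2.79, SE 0.34, adjusted p = 0.00101). Plk2, a polo-like kinase induced by stress, had 15.8, 23 and 19.5 CPM in WT and 98.3, 47.1 and 187 in cKO (2.51, SE 0.47, adjusted p = 0.0043), with the cKO libraries spread widely but all above WT.

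The other cell cycle members were proteins of the spindle, kinases, a cyclin, a phosphatase and an antiproliferative gene. Gtse1, a microtubule-binding protein that restrains p53 after DNA replication, rose from 0.566, 1.46 and 1.94 CPM to 9.09, 7.66 and 8.87 (log2 2.69, SE 0.43, adjusted p = 0.0025). Psrc1, a spindle protein, rose from 0.696, 0.709 and 0.95 CPM to 5.02, 5.55 and 5.3 (2.75, adjusted p = 0.000742). Both were scarce in WT WAT and had closely similar cKO libraries. Ccng1, an unusual cyclin that recruits a phosphatase to Mdm2, rose from 62.5, 48 and 57.6 CPM to 102, 128 and 80.1 (0.89, SE 0.20, adjusted p = 0.00832), though after length and GC correction its value was 0.04 (adjusted p = 0.869). Btg2, an antiproliferative gene that promotes mRNA decay, rose from 52.5, 60.5 and 57.5 CPM to 73.4, 77.7 and 72.2 (0.39, SE 0.11, adjusted p = 0.0234). Its call was lost without WT replicate 1 or 3 or cKO replicate 1 (adjusted p from 0.0672 to 0.0805), although the groups did not overlap. Plk3, a stress kinase, had 6.53, 7.96 and 5.58 CPM in WT and 6.95, 7.56 and 7.61 in cKO (0.14, adjusted p = 0.6), but 0.82 (adjusted p = 0.0119) with scaling by library size alone. Ptp4a3, a phosphatase, had 63.5, 91.9 and 81.3 CPM in WT and 68.5, 54.5 and 44.1 in cKO (-0.50, adjusted p = 0.0747), and it passed without cKO replicate 1 (-0.69, adjusted p = 0.0426) and with DESeq2 (-0.56, adjusted p = 0.0333).

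Of the 11 members of the cell death and survival group, 7 were higher in cKO WAT and 2 were lower, beside 28.2% and 24.2% of all genes tested. Trp53inp1, a nuclear and autophagy protein that promotes death, had 10.4, 7.63 and 5.41 CPM in WT and 33, 40.9 and 33.8 in cKO (log2 2.20, SE 0.25, adjusted p = 0.000821). Apaf1, the scaffold of the apoptosome, had 5.27, 4 and 6.98 CPM in WT and 21.4, 16.8 and 17.2 in cKO (1.77, SE 0.24, adjusted p = 0.00146). In both genes the lowest cKO library lay well above the highest WT library. Eda2r, a receptor of the TNF receptor family, had 0.435, 0.792 and 0.743 CPM in WT and 5.26, 8.91 and 2.69 in cKO (3.09, SE 0.53, adjusted p = 0.00303). It was nearly absent from WT WAT, and its cKO libraries differed among themselves more than those of Apaf1. Smaller rises were those of Pidd1, scaffold of the PIDDosome (0.68, adjusted p = 0.0232), Aen, an apoptosis-linked nuclease (0.69, adjusted p = 0.035), and Zmat3, an RNA-binding protein (0.55, adjusted p = 0.0148). Each of these 3 calls was lost when certain libraries were left out. Aen lost it without any WT replicate or cKO replicate 1 or 2 (adjusted p from 0.0841 to 0.106), Pidd1 without WT replicate 1 or 3 or cKO replicate 1 (0.0561 to 0.102), and Zmat3 without WT replicate 2 or cKO replicate 1 (0.0529 and 0.0608). After length and GC correction Zmat3 was at 0.02 (adjusted p = 0.939) and Aen at 0.54 (adjusted p = 0.116).

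Phlda3 and Ei24 fell. Phlda3, which competes with the kinase Akt for membrane lipid and so restrains survival signalling, was the most abundant member in WT WAT and had 1120, 1340 and 1300 CPM there against 333, 537 and 233 in cKO. All 3 cKO libraries lay far below WT, and the fall was 3.40-fold (log2 -1.76, SE 0.31, adjusted p = 0.00323). Ei24, a protein of the endoplasmic reticulum with a role in autophagy, had 186, 198 and 191 CPM in WT and 112, 121 and 109 in cKO (-0.75, SE 0.11, adjusted p = 0.00188). Its groups were narrow and apart, but with scaling by library size alone the value was -0.07 (adjusted p = 0.577). Perp, a membrane protein of desmosomes, had 0.74, 0.25 and 0.661 CPM in WT and 0.856, 1.2 and 12 in cKO (3.08, SE 1.10, adjusted p = 0.0486). Its high value came from cKO replicate 3, the library with the high epithelial sum, and without that library Perp had 0.89 (adjusted p = 0.281). The Perp call was also lost without any 1 of the WT replicates (adjusted p from 0.105 to 0.154), with limma voom (0.262) and after length and GC correction (0.0524). The death receptors Fas and Tnfrsf10b did not pass. Fas had 30.9, 25.6 and 42.6 CPM in WT and 23, 36.3 and 14 in cKO (-0.43, adjusted p = 0.322), and Tnfrsf10b had 11.7, 14.7 and 17.2 against 12.3, 15 and 12.1 (-0.14, adjusted p = 0.559). After length and GC correction Fas passed as lower (-0.86, adjusted p = 0.0459), and with scaling by library size alone Fas was at 0.23 and Tnfrsf10b passed as higher at 0.53.

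Of the 3 members of the metabolic and secreted stress response, 2 were higher in cKO WAT, beside 28.2% of all genes tested. Gdf15, a secreted cytokine that suppresses appetite, had 1.48, 1.63 and 0.95 CPM in WT and 62.6, 109 and 32.6 in cKO. It was close to absent from every WT library and abundant in every cKO library (log2 5.65, SE 0.51, adjusted p = 0.000576). Sesn1, a sestrin that restrains mTORC1 when amino acids are short, had 24.8, 26.3 and 25.8 CPM in WT and 77.9, 46.7 and 87.7 in cKO (1.47, SE 0.23, adjusted p = 0.00227). Its paralog Sesn2 had 39.6, 44 and 21.2 CPM in WT and 23.5, 37.7 and 16.2 in cKO (-0.44, 95% interval -1.30 to 0.42, adjusted p = 0.343). The sestrins thus differed, with separated groups for Sesn1 and interleaved groups for Sesn2, though the difference between the genes was not tested.

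Of the 5 members of DNA repair and nucleotide supply, 2 were higher and 1 was lower in cKO WAT, beside 28.2% and 24.2% of all genes tested. Polk, a translesion polymerase, rose from 2.7, 2 and 1.94 CPM to 6.71, 5.55 and 6.99 (log2 1.53, SE 0.26, adjusted p = 0.00314), and Ercc5, the endonuclease XPG, from 7.97, 4.38 and 4.38 to 11.8, 14.5 and 13 (1.23, SE 0.28, adjusted p = 0.00907). After length and GC correction Polk was at 0.68 (adjusted p = 0.05), just short of the threshold. Xpc, the sensor of bulky DNA damage, fell from 35.1, 28.2 and 30.2 CPM to 21.1, 24.5 and 18.1 (-0.55, SE 0.16, adjusted p = 0.0217). Its groups did not overlap, but the call was lost without WT replicate 1 or 3 or cKO replicate 1 or 3 (adjusted p from 0.0544 to 0.0719), and with scaling by library size alone the value was 0.12. Ddb2, another damage sensor, had 5.57, 6.8 and 4.34 CPM in WT and 4.52, 3.61 and 5.41 in cKO (-0.30, adjusted p = 0.384). Rrm2b, a ribonucleotide reductase subunit, had 6.62, 5.71 and 4.58 CPM in WT and 7.14, 7.19 and 7.36 in cKO (0.36, adjusted p = 0.195). Its direction turned with the scaling, from 1.04 by library size alone (adjusted p = 0.00512) to -0.69 after length and GC correction (adjusted p = 0.0284).

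**Figure D2:**
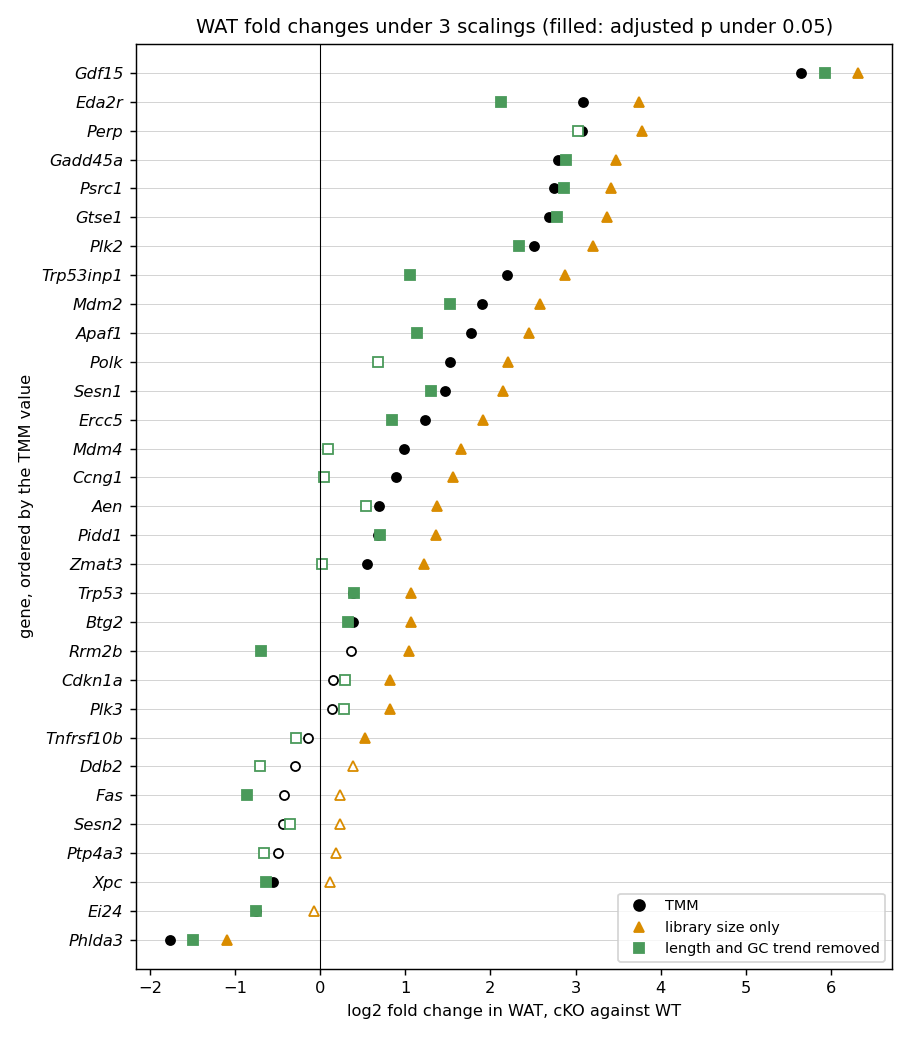
Fitted log2 fold change in WAT, cKO against WT (horizontal axis), of 31 genes ordered by the TMM value (vertical axis), with circles for TMM, triangles for library size alone and squares for length and GC correction, filled where the adjusted p was under 0.05. Triangles lie right of circles throughout, and the median of all genes tested was 0.12 with TMM, 0.80 with library size alone and -0.13 after length and GC correction.

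In cultured KO adipocytes 4 members were lower than in WT, Gdf15, Cdkn1a, Btg2 and Sesn2, and 1 was higher, Phlda3. A further 25 did not pass and Perp, with at most 1 read in a library, was not tested. Of the 12587 genes tested, 10.6% were called lower and 8.94% higher, 19.5% in all. The median log2 fold change was -0.16 over the 30 members tested and -0.02 over all genes. All KO libraries lay below all WT libraries for 10 members, against 18.8% of genes tested, and above for 1, Ercc5, against 18% (36.8% either way). With a single fit over all 4 groups none of the members passed, and 146 genes passed in all (58 higher, 88 lower). That fit took the spread of each gene from tissue and culture together. Fitted apart, the common coefficient of variation between libraries was 0.319 in WAT and 0.114 in culture.

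**Figure D3:**
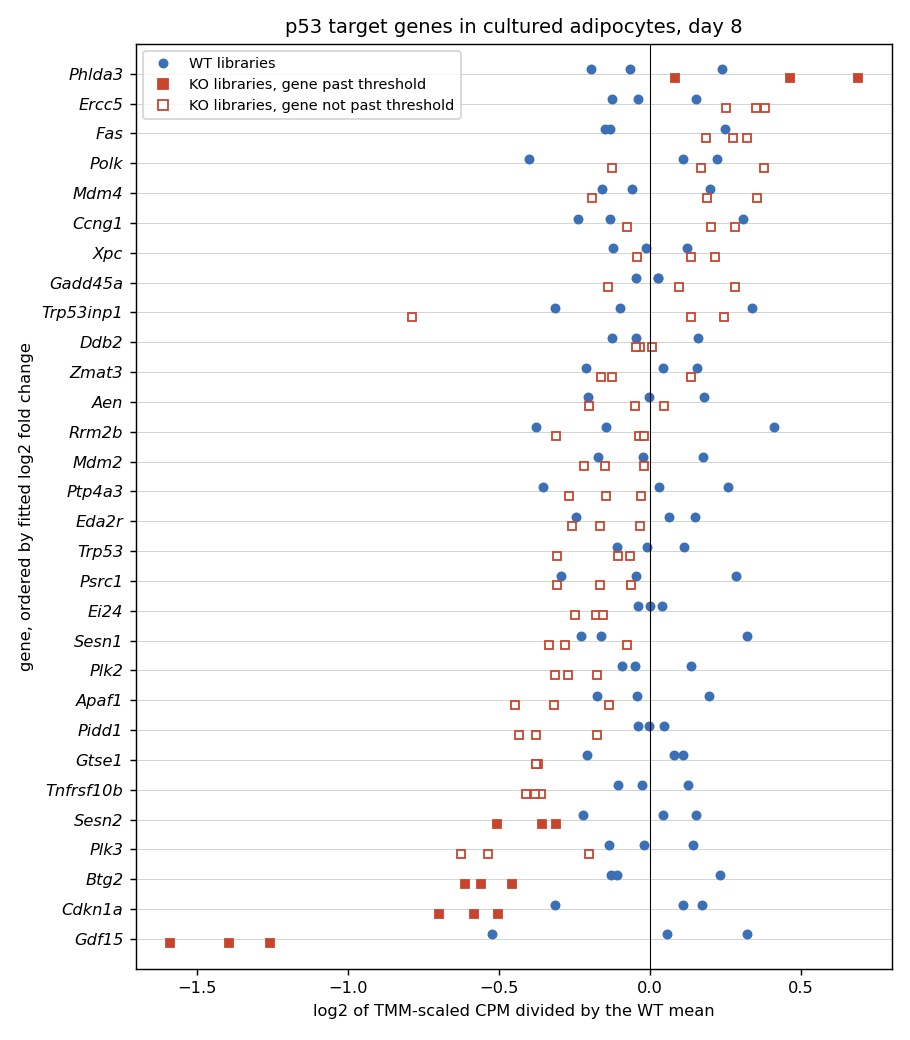
Level of each member tested in each culture library, plotted as the log2 of its CPM divided by the WT mean (horizontal axis) for 30 genes ordered by fitted log2 fold change (vertical axis). Circles are WT libraries and squares KO libraries, filled where the gene passed the threshold. Gdf15 and Cdkn1a at the bottom have KO squares below all WT circles, and most other genes overlap.

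Gdf15 had 134, 161 and 89.8 CPM in WT culture and 49.1, 53.9 and 42.9 in KO culture, so that it was among the most abundant members per kilobase in WT culture (83.2 CPM per kb). All KO libraries of Gdf15 lay below all WT libraries, a 2.64-fold fall (log2 -1.40, SE 0.15, adjusted p = 1.42e-06, and 0.065 in the single fit over all 4 groups). Cdkn1a had 137, 143 and 102 CPM in WT and 84.7, 89.6 and 78.2 in KO (-0.60, SE 0.12, adjusted p = 0.00192, and 0.201 in the single fit). The KO libraries were again all below WT. Btg2 had 14.8, 19 and 15 CPM in WT and 10.6, 11.8 and 11 in KO (-0.54, SE 0.16, adjusted p = 0.0192), and its call was lost without WT replicate 2 (-0.40, adjusted p = 0.177) or KO replicate 1 (-0.51, adjusted p = 0.0525). Sesn2 had 43.4, 40.3 and 33.5 CPM in WT and 30.5, 31.5 and 27.5 in KO (-0.39, SE 0.13, adjusted p = 0.0347). The groups of Sesn2 did not overlap, but the call was lost without WT replicate 1 or 2 or any KO replicate (adjusted p from 0.0626 to 0.174) and after length and GC correction (-0.15, adjusted p = 0.266).

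Phlda3 had 117, 94.7 and 86.7 CPM in WT culture and 160, 137 and 105 in KO culture. The groups overlapped, since KO replicate 3 was below WT replicate 1, and the fitted rise was 0.43 on the log2 scale (SE 0.14, adjusted p = 0.0307). This call was lost without WT replicate 2 or 3 or KO replicate 1 or 2 (adjusted p from 0.0869 to 0.188), and with scaling by library size alone (0.0549). Mdm2 had 45, 49.9 and 57.2 CPM in WT and 43.6, 45.7 and 50 in KO, with interleaved groups and an interval that reached from -0.37 to 0.12 around -0.12 (adjusted p = 0.497). Trp53 had 93.5, 80.3 and 86 CPM in WT and 82.7, 80.4 and 69.9 in KO (-0.16, adjusted p = 0.342).

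Some members came near the threshold in culture. Plk3 had 13.2, 16 and 14.3 CPM in WT and 12.6, 10 and 9.39 in KO, with all KO libraries lower (-0.46, adjusted p = 0.0504), and it passed without KO replicate 1 (-0.58, adjusted p = 0.0303), with limma voom (-0.48, adjusted p = 0.0397) and with scaling by library size alone (-0.52, adjusted p = 0.0283). Without WT replicate 3, Ccng1 (0.34, adjusted p = 0.0363), Ercc5 (0.42, adjusted p = 0.0189) and Fas (0.41, adjusted p = 0.0305) passed as higher. In the same fit Gtse1 (-0.46, adjusted p = 0.0397) and Plk2 (-0.29, adjusted p = 0.0446) passed as lower. After length and GC correction, Ercc5 (0.35, adjusted p = 0.0207) and Plk2 (-0.31, adjusted p = 0.016) passed. None of these 6 genes passed in the quasi-likelihood test on all 6 culture libraries with TMM scaling and no block. The members not yet named in culture, such as Gadd45a with 36, 36 and 34.3 CPM in WT and 43, 37.8 and 32.1 in KO, had fitted values between -0.38 for Tnfrsf10b and 0.17 for Polk.

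**Figure D4:**
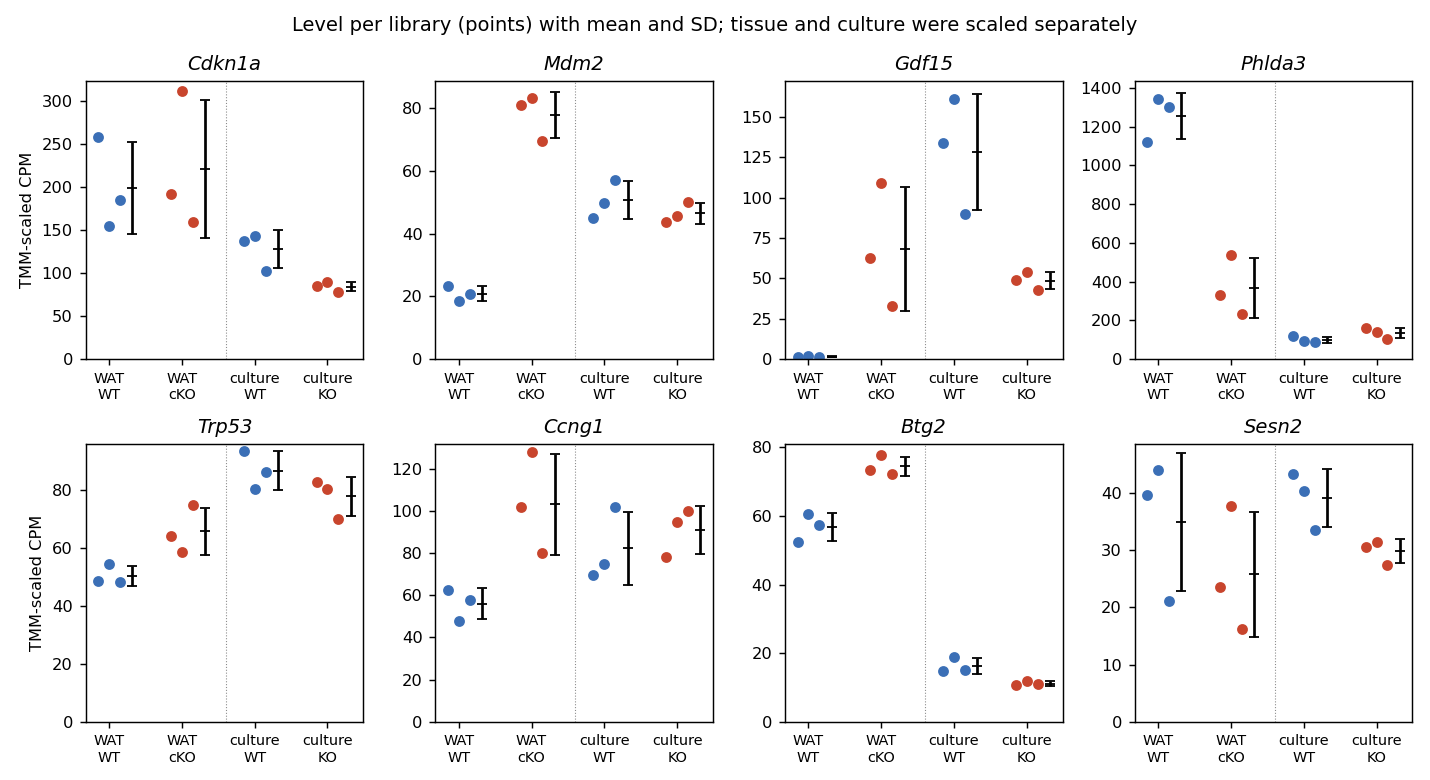
CPM per library (points) of Cdkn1a, Mdm2, Gdf15, Phlda3, Trp53, Ccng1, Btg2 and Sesn2 in WT and knockout WAT and culture, with the mean and SD of 3 libraries beside them. Gdf15 goes from 1.35 ± 0.356 (mean ± SD) to 68.2 ± 38.7 in WAT and from 129 ± 36.2 to 48.6 ± 5.49 in culture, and Phlda3 moves the opposite way in each.

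The knockout effect itself differed between tissue and culture for 22 of the 31 members, by an interaction term in a fit to the 12 libraries and 14463 genes (48.8% called in all). For 19 members the effect in WAT was the higher, against 27.7% of genes tested, and for 3 the lower, against 21.1%. The median of WAT effect minus culture effect was 0.87 over the members and 0.22 over all genes. Among the 22, Gdf15 differed most, by 7.09 log2 units (SE 0.55, adjusted p = 3.82e-06), followed by Eda2r (3.27), Gtse1 (3.09) and Psrc1 (2.95). Mdm2 differed by 2.06 (SE 0.18, adjusted p = 6.96e-06), Btg2 by 0.96 (adjusted p = 0.000628), and Trp53 by 0.58 (SE 0.17, adjusted p = 0.0123). For Phlda3 the difference was -2.16 (SE 0.36, adjusted p = 0.000368), for Xpc -0.63 (adjusted p = 0.0222) and for Ei24 -0.52 (adjusted p = 0.00479). With scaling by library size alone Ei24 was at 0.13 and Xpc at 0.01 in this comparison. Cdkn1a missed the threshold (0.78, SE 0.34, 95% interval 0.05 to 1.51, adjusted p = 0.0727), and passed without WT WAT replicate 1 (1.01) or cKO replicate 3 (1.00) and with scaling by library size alone (1.42).

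**Figure D5:**
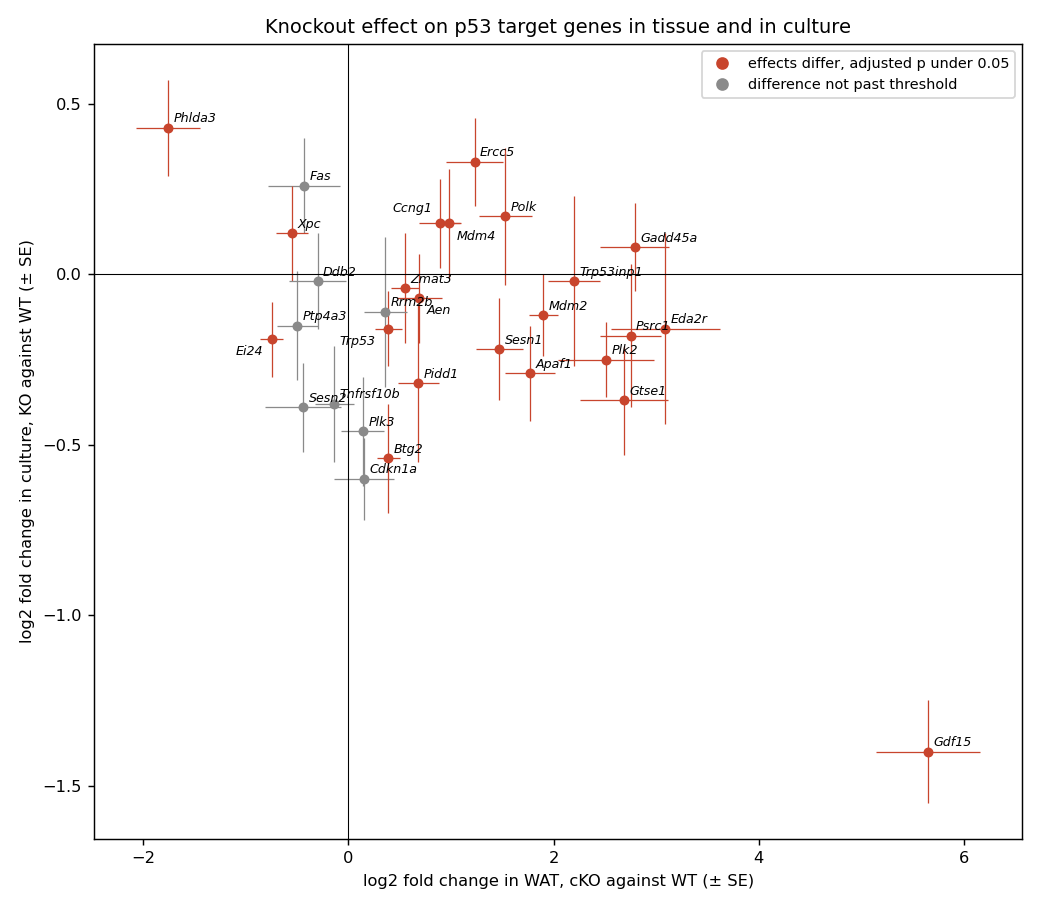
Log2 fold change in WAT (horizontal axis) against that in culture (vertical axis) for the 30 members tested in both, with SE as bars and members whose effects differed past the threshold in red. Of these genes 17 lie right of and below the origin, 5 above 0 in both, 5 below 0 in both and 3 left of and above it, with Gdf15 far at the lower right and Phlda3 at the upper left.

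Called in both settings were 3 members, and each went in opposite directions: Gdf15 and Btg2 were higher in cKO WAT and lower in KO culture, and Phlda3 was lower in cKO WAT and higher in KO culture. In culture the groups of Phlda3 overlapped, and its call there and both calls of Btg2 were lost when certain libraries were left out. Called in neither were 6 members, Plk3, Tnfrsf10b, Fas, Ptp4a3, Ddb2 and Rrm2b. Of all genes tested, 52.4% were called in WAT and 19.5% in culture. How many of all genes were called in both settings or in neither was not counted, so these counts are not shown to be particular to the members. The remaining calls in WAT had no call in culture, and those of Cdkn1a and Sesn2 in culture had none in WAT. For 6 members with a call in WAT, Ccng1, Mdm4, Polk, Ercc5, Gadd45a and Ei24, both fitted values had the same sign.

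Other genes of the pathway were read from lists of p53 regulators and of further p53 targets, which share Ppm1d. Among 26 regulators tested in WAT, 8 were higher and 6 lower, with a median of 0.06, counts near the shares of all genes (28.2% and 24.2%). Higher were Chek1, the checkpoint kinase of stalled replication (log2 fold change 2.71), and Sirt1, a deacetylase of p53 (1.16), while Cdk5rap3 (-1.30) and Hexim1, an inhibitor of transcription elongation (-0.64), were lower. Among 37 further targets tested in WAT, 10 were higher and 8 lower, again near those shares, with a median of 0.12, equal to that of all genes. Of these, Rev3l, a translesion polymerase subunit (1.73), Pltp, a phospholipid transfer protein (2.24), and Fbxw7, a ubiquitin ligase subunit (1.15), were higher and Dusp14, a phosphatase, was lower (-2.31).

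In culture 2 of 26 regulators were higher and 2 lower, beside 8.94% and 10.6% of all genes. The ribosomal protein Rpl5 was higher (0.44), and the acetyltransferases Ep300 (-0.52) and Crebbp (-0.45) were lower. Of 35 further targets tested in culture none was higher and 10 were lower, with a median of -0.17, among them Pltp (-0.74), Notch1 (-0.63) and Susd6 (-0.68). Pltp, like Gdf15, was thus higher in cKO WAT and lower in KO culture.

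Markers of cell division and of cell types moved with the same groups. In WAT all 28 cell division genes were higher (median 2.39), among them Ccnb1 (3.21), Top2a (2.79), Tpx2 (2.73) and Mki67 (3.03), and their summed level went from 153 to 177 CPM in WT to 373 to 705 in cKO. Of 20 macrophage markers 17 were higher, including Msr1 (4.41), Itgam (4.16), Fcgr1 (3.13) and Cd68 (4.30), and summed to 6730, 3490 and 7030 CPM in cKO replicates 1 to 3. Of 18 mature adipocyte markers 14 were lower and none higher, among them Cfd (-5.02), Dgat2 (-2.73), Lep (-1.31) and Pparg (-1.24), with sums of 17300, 29400 and 13700 CPM. Of the cKO libraries, replicate 2 had the lowest macrophage and the highest adipocyte sum. How the members ranked across the cKO libraries was not compared with the ranks of all genes. Preadipocyte and fibroblast markers were higher in 9 of 15 cases, with Lum (3.05), Fap (2.36), Dcn (2.39) and Dpp4 (2.46), and endothelial markers lower in 5 of 10, with Cldn5 (-1.45), Cdh5 (-1.07), Tie1 (-0.95) and Kdr (-0.80). Of 8 lymphocyte markers only Cd79b passed (1.53), and of 9 epithelial markers 1 was higher and 1 lower. Of 10 skeletal muscle markers 1 passed as higher, Myh1, with overlapping groups, and their sums were 32.4, 239 and 2350 CPM in WT replicates 1 to 3 and 1690, 285 and 50.5 in cKO, so that WT replicate 3 and cKO replicate 1 stood apart. The part of these markers in the values of the p53 targets was not tested, and in bulk tissue fewer cells of a type and less RNA per cell cannot be told apart.

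Fewer members of these lists passed in culture. Mature adipocyte markers were higher in 6 and lower in 2 of 17 cases, with Fabp4 (0.89), Pparg (0.52) and Adipoq (0.47), and summed to 32000 to 36800 CPM in KO. Macrophage markers were lower in 7 and higher in 1 of 19, with Cd163 (-1.70), Laptm5 (-0.84) and C1qa (-0.75), and summed to 3200 to 3720 CPM. Of 28 cell division genes only Cdk1 (0.41) and Cenpe (0.45) passed, both higher. Preadipocyte and fibroblast markers were lower in 5 and higher in 1 of 14, with Col1a1 (-0.71), Pdgfrb (-0.50) and Thy1 (-0.40), and endothelial markers lower in 2 of 10, Cdh5 (-0.64) and Kdr (-0.42). The single lymphocyte marker tested, Cd4, did not pass (-1.05), nor did any of 4 muscle markers, and 1 of 4 epithelial markers was lower. No culture library had a read of 5 of the 10 lymphocyte markers or of 5 of the 12 epithelial markers. Here too their part in the falls of Gdf15, Cdkn1a, Btg2 and Sesn2 was not tested.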

How the data were processed

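The 31 members and the gene lists were chosen with earlier results of these data known, and they support no claim of their own. Raw counts, 1 table for WAT and 1 for cultures, were deposited by the authors with no normalization. GRCm38, HISAT2 2.1.0, cutadapt 1.11 and FastQC 0.11.2 are named, with no role, in the submitters' processing notes. How reads were counted (tool, annotation, strand) was not given in the sources used here, so reads cannot be told apart between a gene and one that overlaps it, or between close copies. Among the members, Eda2r, Zmat3, Plk3, Ei24, Rrm2b, Xpc, Ddb2, Gadd45a, Apaf1, Ptp4a3 and Mdm4 overlap another gene. Within a group no pair of libraries differed by as little as sampling noise (chi-square over its degrees of freedom, 4.81 to 202).

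After filterByExpr (minimum count 10) and TMM scaling, counts were fitted in R 4.3.3 by edgeR 4.0.16 and its quasi-likelihood test, on the 6 libraries of each comparison, and as an interaction over 12. Adjusted p-values are Benjamini-Hochberg values over all genes tested, with a threshold of 0.05. An SE is the log2 fold change divided by the square root of F. The edgeR, DESeq2 and voom tests were first run on counts simulated from the spread fitted to these data, the difference with edgeR only. Such a run cannot show a misfit of that spread, and its outcome is not reported here. Alternatives were RLE size factors, library size alone, the replicate number as a block, no count filter, DESeq2 1.42.0, limma 3.58.1 voom, length and GC correction, the removal of a per-library trend (values for 85.8% of genes tested in WAT, 98.0% in culture), 1 fit over all 4 groups, and each library left out. Summing the numbered copy of Cdkn1a was chosen after seeing the data, as were the epithelial and skeletal muscle markers.

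All members are accounted for. From the other lists the text names up to 4 genes past the threshold with the smallest p in WAT and up to 3 in culture, or the smallest p where none passed. Starts and ends of sequences are 1-based on GRCm38.p6 from RefSeq. Members without a promoter window were Trp53inp1, Tnfrsf10b, Zmat3, Perp, Rrm2b, Xpc, Ddb2 and Ptp4a3. Lengths are of the longest GENCODE transcript.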

Additional observations from a re-analysis of the deposited data

Results flagged for a closer look

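For 22 members the knockout effect in WAT differed from that in culture by the interaction test of edgeR (adjusted p under 0.05). The values are WAT effect minus culture effect in log2 units. Gdf15 was at 7.09, Eda2r at 3.27, Gtse1 at 3.09, Psrc1 at 2.95, Plk2 at 2.80 and Gadd45a at 2.74. Trp53inp1 was at 2.27, Apaf1 at 2.1, Mdm2 at 2.06, Sesn1 at 1.72, Polk at 1.41 and Pidd1 at 1.04. Smaller differences were those of Btg2 (0.96), Ercc5 (0.94), Mdm4 (0.87), Aen (0.79), Ccng1 (0.77), Zmat3 (0.62) and Trp53 (0.58). For Phlda3 (-2.16), Xpc (-0.63) and Ei24 (-0.52) the knockout effect was lower in WAT than in culture. Aen lost its call without WAT WT replicate 1 or WAT cKO replicate 2 or culture WT replicate 1 or 2 or culture KO replicate 2 or 3 (adjusted p from 0.051 to 0.0771). Ccng1 lost its call without WAT WT replicate 2 or culture WT replicate 3 or culture KO replicate 1 (adjusted p from 0.0749 to 0.0854). Xpc lost its call without WAT WT replicate 1 or WAT cKO replicate 1 or 3 or culture WT replicate 2 or culture KO replicate 3 (adjusted p from 0.0507 to 0.0617). Zmat3 lost its call without WAT WT replicate 2 or culture WT replicate 1 or 2 or culture KO replicate 1 or 2 (adjusted p from 0.0528 to 0.0683). After length and GC correction the calls of Ccng1 (0.04), Aen (0.38), Polk (0.61) and Ercc5 (0.45) were lost, as were those of Zmat3 (-0.13, adjusted p = 0.651) and Mdm4 (-0.11, adjusted p = 0.584), whose sign turned. With scaling by library size alone the sign of Ei24 (0.13) and Xpc (0.01) turned. Tissue and culture differ in age, cell makeup, depth and table of features. The fitted log2 fold change of the targeted gene Fam50a was -0.60 in WAT (adjusted p = 0.0395) and -0.26 in culture (adjusted p = 0.134). The difference between these Fam50a values is not reported here. The part of each of these in the differences between the knockout effects cannot be told apart.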

How the results depend on the processing

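Of the 20 members called higher in WAT, 11 stayed past the threshold in all 14 alternatives (Apaf1, Eda2r, Ercc5, Gadd45a, Gdf15, Gtse1, Mdm2, Plk2, Psrc1, Sesn1 and Trp53inp1), as did 1 of 3 called lower, Phlda3. In culture no call passed in all 14, since the single fit over all 4 groups took 2459 calls to 146 (58 higher, 88 lower) and members to 0 and 0. That fit shares the spread of each gene between culture and the more variable WAT libraries. In the difference 13 of 19 and 1 of 3 passed in all 19. Scaling by library size alone gave 8834 genes higher and 1430 lower in WAT, 7326 and 1197 in the difference, member medians of 1.37, -0.21 (culture) and 1.52, 1 member lower in WAT and in the difference, and 0 higher in culture. After length and GC correction, 2551 genes were higher in WAT and 2338 in the difference, with member medians of 0.40 and 0.54, 5 members lower in each, and 2 higher in culture. With libraries left out in turn, WAT gave 6456 to 8595 calls (3382 to 4375 higher, 3074 to 4220 lower), 15 to 19 members higher, 2 to 3 lower and a median of 0.64 to 0.89. Culture gave 897 (without WT replicate 2) to 3380 calls (399 to 1715 higher, 498 to 1665 lower), 0 to 3 members higher, 2 to 6 lower and a median of -0.18 to -0.13. Culture counts were 1499 without WT replicate 1, 1528 without KO replicate 1 and 1511 without KO replicate 2, with 1715 genes higher without WT replicate 3. The difference gave 6193 to 7582 calls, 17 to 20 members higher, 2 to 4 lower and a median of 0.81 to 1.00. A pair of exactly matching p53 motifs with no base between them was in 0 members.

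With the replicate number as a block, calls were 7258 in WAT (15 members higher, 3 lower), 3824 in culture (1816 and 2008; 2 and 6 members) and 6668 in the difference (18 and 3). Trp53, Aen, Btg2, Perp and Pidd1 lost their call in WAT and Zmat3 in the difference, while Ercc5, Plk2 and Plk3 gained one in culture. Deviations of same-numbered libraries correlated at -0.355, 0.0245 and -0.227 in WAT and 0.217, 0.0392 and 0.266 in culture. Those of differently numbered libraries correlated at -0.0483 to 0.38 in WAT and -0.256 to 0.0855 in culture. Whether same-numbered libraries share more than a number was not tested.

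In WAT, signs turned with library size alone, Sesn2 (0.23), Fas (0.23), Tnfrsf10b (0.53), Xpc (0.12), Ddb2 (0.38), Ptp4a3 (0.18), and after length and GC correction, Rrm2b (-0.69), and over fits that each left out 1 library, Cdkn1a (-0.20 to 0.38). In culture, signs turned with no count filter, Ddb2 (0.00), and after length and GC correction, Ccng1 (-0.05), Fas (-0.01), Zmat3 (0.13), Aen (0.14), Gadd45a (-0.05), Ptp4a3 (0.25), and over fits that each left out 1 library, Zmat3 (-0.14 to 0.05), Aen (-0.15 to 0.05), Ptp4a3 (-0.30 to 0.01), Trp53inp1 (-0.20 to 0.19), Rrm2b (-0.26 to 0.16), Ddb2 (-0.07 to 0.07), Gadd45a (-0.02 to 0.19). For the difference between both effects, signs turned with library size alone, Sesn2 (0.63), Ei24 (0.13), Xpc (0.01), Ddb2 (0.41), Ptp4a3 (0.33), and after length and GC correction, Zmat3 (-0.13), Rrm2b (-0.46), Mdm4 (-0.11), and over fits that each left out 1 library, Sesn2 (-0.37 to 0.26). Scaling by library size alone drops the TMM factors, which were 0.781 to 0.796 in WT WAT and 1.23 to 1.3 in cKO WAT. The WAT values of all members moved upward without them, and the median over all genes tested went from 0.12 to 0.80. The cause of the other changes was not tested. With 3 libraries a group, small changes in WAT were not detectable where libraries differed as those of Cdkn1a did.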
